A study of Mus musculus with 6 samples.

Results

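The 10 genes described here are canonical transcriptional targets of p53 and inhibitors of the cell cycle: *Cdkn1a*, *Cdkn1b*, *Cdkn2a*, *Cdkn2b*, *Cdkn2c*, *Mdm2*, *Ccng1*, *Phlda3*, *Bax* and *Btg2*. They were taken by symbol from the table of counts per gene, which listed all 10 of them once each among 25403 genes, and the question was whether *Cdkn1a* was higher together with other p53 targets or alone. Bulk RNA was sequenced from the livers of 3 wild-type C57BL6/J mice (WT) and 3 mice with a whole-body knockout of *Themis* (*Themis*-KO), a gene known for its role in T cell receptor signaling in developing thymocytes. All 6 mice carried the same treatment, a MASH (metabolic dysfunction-associated steatohepatitis) diet that began at 10 to 12 weeks of age and lasted 3 months, in which fat gave 40% and fructose 20% of the calories and cholesterol was added at 2%. The knockout covers immune cells as well as hepatocytes, and the labels do not give the deleted part of the gene. The study's methods name male mice for its metabolic experiments and livers of both sexes for expression, without tying these 6 livers to either. The legend of the study's figure that includes the bulk RNA data names male mice, in groups larger than those sequenced here.

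*Themis* RNA did not separate the labels, with 8.07, 25.6 and 12.0 CPM (read counts relative to the library size after TMM scaling) in the livers labelled WT and 8.63, 7.74 and 9.97 CPM in those labelled *Themis*-KO (edgeR: -0.79 on the log2 scale, adjusted p = 0.199), so the groups are named by their labels throughout. Without the deleted part of the gene, a count over the whole gene is a weak check of the labels. The share of *Gm28438* in the summed counts of *Gm28438* and *mt-Nd3*, which split the livers into 2 kinds called mitochondrial types here, was 96.6% and 96.8% in WT livers 1 and 2 and between 2.20% and 3.26% in WT liver 3 and the 3 KO livers. WT liver 3 was therefore the only WT liver of the type that all KO livers had, and mitochondrial type and genotype label cannot be told apart in the other 5. Each liver held between 20679642 and 25649767 counts on genes. Hepatocyte markers had the largest sum of the cell type marker lists in all 6 libraries (8 genes, summed level between 45990 and 58260 CPM), as fits the label liver.

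p53 is a transcription factor that is kept low by MDM2, which marks it for degradation, and that accumulates after DNA damage and other stress. It then activates genes that stop the cell cycle (*Cdkn1a*, *Btg2*), genes that promote apoptosis (*Bax*, *Phlda3*) and genes that act back on p53 itself (*Mdm2*, *Ccng1*). The cyclin-dependent kinase (CDK) inhibitors fall into the CIP/KIP family, here p21 (*Cdkn1a*) and p27 (*Cdkn1b*), and the INK4 family, here p16 (*Cdkn2a*), p15 (*Cdkn2b*) and p18 (*Cdkn2c*). In injured liver p21 is a common mark of hepatocytes that have stopped dividing, and it can also be induced without p53.

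p53 binds DNA through pairs of a 10-base element, the p53 decamer consensus, which reads the same on both strands. The promoter windows in RefSeq on GRCm38.p6, from 250 bases before to 50 bases after each annotated start, were searched for exact matches. All 10 genes had a window, 13 in all, and 4 windows held a decamer (30.8%), compared with 2745 of 32851 windows of all genes (8.36%). These were windows of *Cdkn1a*, with 2 decamers, and of *Mdm2*, *Ccng1* and *Bax*, with 1 each. Of the *Cdkn1a* windows, 1 held both. The 100 bases around each match are shown, in the direction of the gene, as the stretches that set these 4 members apart from the others in sequence. Capitals mark the decamer.
Cdkn1a, chr17:29090872-29090971, + strand: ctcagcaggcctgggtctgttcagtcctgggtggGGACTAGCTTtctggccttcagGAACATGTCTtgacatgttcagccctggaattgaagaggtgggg
Mdm2, chr10:117710890-117710989, - strand: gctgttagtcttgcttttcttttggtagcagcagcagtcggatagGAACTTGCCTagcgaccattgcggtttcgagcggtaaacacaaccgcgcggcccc
Ccng1, chr11:40755417-40755516, - strand: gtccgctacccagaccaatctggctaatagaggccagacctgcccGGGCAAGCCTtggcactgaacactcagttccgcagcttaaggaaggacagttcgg
Bax, chr7:45467045-45467144, - strand: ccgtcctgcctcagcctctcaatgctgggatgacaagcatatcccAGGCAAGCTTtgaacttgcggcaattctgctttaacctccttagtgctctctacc

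All 4 stretches lie upstream of the annotated start of their own window. The decamers begin 73 and 51 bases before that start in *Cdkn1a* and 186, 185 and 201 bases before it in *Mdm2*, *Ccng1* and *Bax*. *Cdkn1a* has another annotated start further downstream, whose window (chr17:29093519-29093818) held 0 decamers. The pair in *Cdkn1a* lay within 13 bases of each other, an arrangement found in 24 of the 32851 windows (0.0731%). The 10 bases that follow its second decamer matched the consensus at 9 of 10 positions, whereas those that follow the matches in *Mdm2*, *Bax* and *Ccng1* matched at 5, 4 and 4. No exact match lay in the windows of *Btg2*, *Phlda3*, *Cdkn1b* or the INK4 genes, which says only that these letters are not in those windows. A match is a description of sequence, and binding of p53 was not measured.

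*Cdkn1a* and *Bax* were the members that rose in the livers labelled *Themis*-KO, *Cdkn1a* by a fitted 3.36-fold and *Bax* by 1.43-fold. Of the 10 members, 9 passed the filter on low counts, and 2 of those 9 were higher in edgeR's quasi-likelihood test at an adjusted p of 0.05, where 4.97% of the 14496 genes tested were higher. None of the 9 was lower, where 4.14% of genes tested were lower, and none was lower at an unadjusted p under 0.05 or in DESeq2. At an unadjusted p under 0.05, 5 of the 9 members were higher and 0 lower. Counted in either direction this was 5 of 9 members, beside 4449 of all 14496 genes tested. The share of all genes that were higher at that p was not counted. DESeq2 called the same pair, where it called 1207 of 15056 genes higher and 1072 lower. Every KO liver lay above every WT liver in 4 of the 9 (*Cdkn1a*, *Cdkn2b*, *Cdkn2c* and *Bax*), where 17.7% of genes tested were so ordered, and 0 of 9 showed the opposite order, where 16.9% did. The median log2 fold change over the 9 members was 0.52, and over all genes tested it was 0.01. The livers are bulk tissue, so more cells that express a gene and more RNA per cell cannot be told apart.

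*Cdkn1a* (ENSMUSG00000023067, GRCm38 chr17:29090976-29100727, + strand) encodes p21, which binds and blocks cyclin-CDK complexes. It measured 7.62, 8.54 and 18.8 CPM in WT livers 1 to 3 and 35.5, 48.7 and 34.2 CPM in KO livers 1 to 3. The groups did not overlap, and WT liver 3 stood above the other 2 WT livers and below every KO liver. The means were 11.7 ± 6.22 and 39.5 ± 8.03 CPM (SD, n = 3), and the log2 fold change was 1.75 (SE 0.33, 95% interval 0.98 to 2.52, adjusted p = 0.0297 in edgeR). Only 0.704% of the genes tested had a larger log2 fold change, which placed *Cdkn1a* at rank 103. Between the livers of the shared mitochondrial type, WT liver 3 had 18.8 CPM and the KO livers had 34.2 to 48.7 CPM. With that type as a covariate the estimate fell to 1.07 (SE 0.24, edgeR unadjusted p = 0.003, adjusted p = 0.302). That fit called 0 of all 14496 genes tested higher and 3 lower. Without WT liver 3 the estimate was 2.29 (adjusted p = 0.00878). Leaving out WT liver 1, WT liver 2, KO liver 1 or KO liver 2 gave 1.52, 1.57, 1.82 and 1.56, each with an adjusted p between 0.094 and 0.112. In these fits edgeR called only 12, 19, 8 and 27 genes higher over all genes tested. Exons of *Cdkn1a* share 273 bases with a gene model on the opposite strand, whose reads cannot be told apart here, since the strand setting of the counting is not given in the sources used here.

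**Figure D1:**
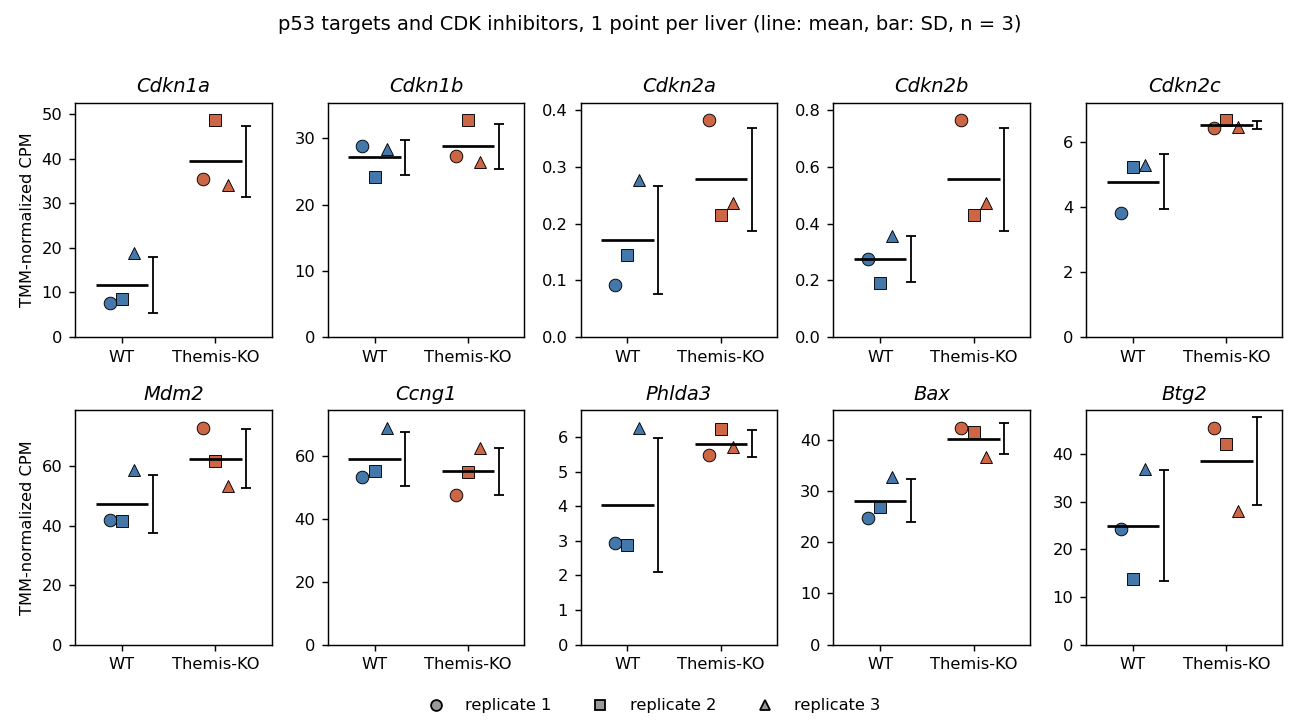
TMM-normalized CPM (vertical axis, starting at 0, with its own scale in each panel) of the 10 members in the livers labelled WT (blue) and Themis-KO (orange). Each point is a liver, its shape gives the replicate number, lines are means and bars are SD (n = 3). The KO points lie above all WT points in Cdkn1a, Cdkn2b, Cdkn2c and Bax, and WT liver 3 (blue triangle) is the highest WT liver in every panel except Cdkn1b.

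*Cdkn1b* of the same family did not pass the test. The gene, which encodes p27, an inhibitor known to be controlled in large part through protein stability, measured 28.9, 24.1 and 28.5 CPM in the WT livers and 27.3, 32.7 and 26.4 CPM in the KO livers. The groups overlapped, with the lowest value in a WT liver and the highest in a KO liver. On the log2 scale the difference was 0.08 (SE 0.12, 95% interval -0.19 to 0.36, adjusted p = 0.656), and this interval lay below that of *Cdkn1a*. Per kilobase of exon, *Cdkn1a* stood at 0.338, 0.454 and 0.848 times the level (RPKM) of *Cdkn1b* in the WT livers and at 1.67, 1.91 and 1.66 times its level in the KO livers. The more abundant CIP/KIP transcript was thus *Cdkn1b* in all 3 WT livers and *Cdkn1a* in all 3 KO livers.

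Of the INK4 genes none passed the test, and all were low. *Cdkn2c*, whose product p18 inhibits CDK4 and CDK6, measured 3.81, 5.23 and 5.29 CPM in the WT livers and 6.42, 6.67 and 6.47 CPM in the KO livers. The KO values lay within a narrow range above all WT values, and the log2 fold change of 0.45 (SE 0.17, 95% interval 0.06 to 0.83) had an adjusted p of 0.117. *Cdkn2b*, which encodes p15, a CDK4 and CDK6 inhibitor known as a target of TGF-beta, had 6, 4 and 9 counts in the WT livers and 18, 10 and 10 counts in the KO livers. Every KO count exceeded every WT count, but at these depths the log2 fold change of 0.99 had an SE of 0.41 (95% interval 0.04 to 1.95, adjusted p = 0.151). *Cdkn2a* had 2, 3 and 7 counts in the WT livers and 9, 5 and 5 counts in the KO livers, and the groups overlapped. It did not pass the filter, and in a fit without a filter its log2 fold change was 0.65 (SE 0.66, 95% interval -0.74 to 2.04, adjusted p = 0.582), so a difference in either direction was not detectable at this depth. This locus encodes both p16INK4a and p19ARF, which share exons in different reading frames, and the count per gene does not separate them.

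Among the p53 targets that act back on p53, neither passed the test. *Mdm2*, the ubiquitin ligase of p53, measured 41.8, 41.6 and 58.7 CPM in the WT livers and 73.0, 61.7 and 53.2 CPM in the KO livers. WT liver 3 lay above KO liver 3, and the log2 fold change was 0.40 (SE 0.17, 95% interval 0.01 to 0.79, adjusted p = 0.152). *Ccng1*, which encodes cyclin G1, a regulator of MDM2 and among the most widely used readouts of p53 activity in rodent liver, measured 53.3, 55.3 and 69.1 CPM in the WT livers and 47.7, 55.1 and 62.8 CPM in the KO livers. The highest value was in a WT liver and the lowest in a KO liver. Its log2 fold change was -0.10 (SE 0.14, 95% interval -0.42 to 0.22, adjusted p = 0.641), and the upper end of that interval lay below the lower end for *Cdkn1a*. The sign for *Ccng1* was positive (0.03) without TMM, with library totals as the only scaling, which put the median of all genes at 0.15.

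Of the apoptosis targets, *Bax* passed the test and *Phlda3* did not. *Bax* (ENSMUSG00000003873, GRCm38 chr7:45461697-45466898, - strand), whose product permeabilizes the outer mitochondrial membrane, measured 24.8, 26.9 and 32.8 CPM in the WT livers and 42.5, 41.6 and 36.8 CPM in the KO livers. The groups did not overlap, and the nearest values were those of WT liver 3 and KO liver 3. The log2 fold change was 0.52 (SE 0.12, 95% interval 0.23 to 0.80, adjusted p = 0.0426). With the mitochondrial type as a covariate it was 0.29 (adjusted p = 0.51), and without WT liver 1 or 2 or KO liver 1 or 2 it was 0.43 to 0.48 (adjusted p between 0.134 and 0.153). Over all genes tested, the covariate fit called 0 higher and each of these omissions called between 8 and 27 higher. Within the shared type, WT liver 3 lay at 32.8 CPM and the KO livers at 36.8 to 42.5 CPM, and *Bax* shares 192 exonic bases with a gene model on the same strand. *Phlda3*, which encodes an inhibitor of AKT signaling, measured 2.94, 2.88 and 6.27 CPM in the WT livers and 5.48, 6.24 and 5.72 CPM in the KO livers. WT liver 3 was the highest of all 6, above every KO liver, and the other 2 WT livers were the lowest. The log2 fold change of *Phlda3* was 0.52 (SE 0.30, 95% interval -0.18 to 1.22, adjusted p = 0.279) with all livers, 0.995 (SE 0.18, adjusted p = 0.032) without WT liver 3 and -0.11 with the mitochondrial type as a covariate.

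*Btg2* is an antiproliferative gene that is both a p53 target and an immediate early gene. Its SD in WT livers was the largest of the 6 p53 targets in CPM, at 11.6 on a mean of 25.0. That of *Cdkn1a* was larger relative to its mean (6.22 on 11.7 CPM). *Btg2* measured 24.3, 13.7 and 36.9 CPM in the WT livers and 45.5, 42.2 and 28.1 CPM in the KO livers. KO liver 3 lay between WT livers 1 and 3, and the log2 fold change was 0.62 (SE 0.33, 95% interval -0.15 to 1.39, adjusted p = 0.24).

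Per kilobase of exon, the p53 targets *Bax*, *Ccng1*, *Mdm2* and *Btg2* had the highest mean levels of the members in both groups and the INK4 genes the lowest. In the WT livers the mean level in RPKM was 17.9 for *Bax*, 16.9 for *Ccng1*, 9.32 for *Mdm2*, 9.11 for *Btg2*, 5.96 for *Cdkn1b*, 3.28 for *Cdkn1a*, 2.59 for *Phlda3*, 1.78 for *Cdkn2c*, 0.197 for *Cdkn2b* and 0.146 for *Cdkn2a*. Neighbours in this order overlapped in the WT livers, except that every *Ccng1* value lay above every *Mdm2* value and every *Cdkn2c* value above every *Cdkn2b* value. In the KO livers *Cdkn1a* stood at 11.1 RPKM, next to *Mdm2* (12.3) and *Btg2* (14.1), and its range overlapped theirs. *Cdkn1a* moved from the sixth to the fifth place of the 10, ahead of *Cdkn1b* (6.32).

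*Cdkn1a* was compared with each of the other 5 p53 targets inside the same liver, as the ratio of its counts to theirs, which does not depend on how libraries were scaled. The ratio to *Ccng1* was 0.143, 0.155 and 0.272 in the WT livers and 0.745, 0.883 and 0.544 in the KO livers, a 3.90-fold difference of geometric means. For *Mdm2* the ratios were 0.182, 0.205 and 0.321 against 0.487, 0.789 and 0.642 (2.74-fold), and for *Bax* they were 0.307, 0.318 and 0.573 against 0.837, 1.17 and 0.928 (2.53-fold). All KO livers lay above all WT livers in each of these ratios, also in the one to *Bax*, the other member that passed the test. The ratio to *Phlda3* was 2.59, 2.97 and 3.00 in the WT livers and 6.48, 7.81 and 5.98 in the KO livers (2.36-fold). Here WT liver 3 lay close to the other WT livers, since both genes were high in it. The ratio to *Btg2* was 0.314, 0.622 and 0.51 against 0.781, 1.16 and 1.22 (2.23-fold). Each of the 5 ratios gave an exact two-sided permutation p of 0.1 (adjusted over the 5 ratios 0.1), the smallest that 3 livers against 3 allow, so this permutation test cannot reach 0.05. The 5 ratios share *Cdkn1a* as numerator, whose counts alone already separated the groups, so they are not independent comparisons.

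**Figure D2:**
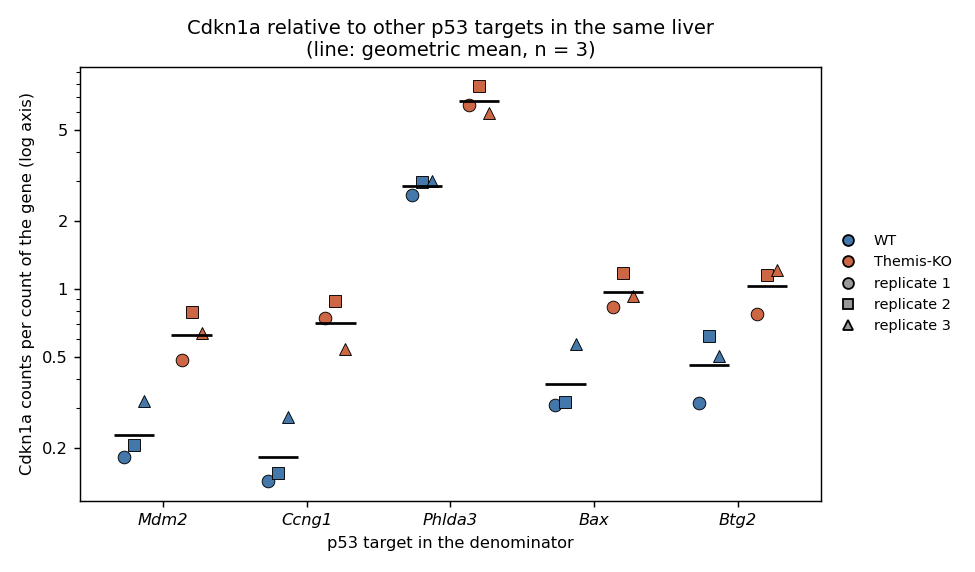
Counts of Cdkn1a per count of each of the other 5 p53 targets among the members (vertical log axis), by liver. Blue is WT, orange is Themis-KO, shapes give the replicate number and lines are geometric means (n = 3). The KO points lie above the WT points for all 5 genes, by 2.23-fold for Btg2 up to 3.90-fold for Ccng1.

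WT liver 3 was the highest WT liver in 9 of the 10 members, and in all 6 p53 targets among them, compared with 4785 of all 14496 genes tested. It lay inside the range of the KO livers in 4 of the 10 members (43.7% of all genes tested). Without it, 3 members passed the test (*Cdkn1a*, *Phlda3* and *Bax*), where 481 of 14830 genes tested were higher. Without any of WT liver 1, WT liver 2, KO liver 1 or KO liver 2, 0 did by edgeR, with between 2 and 3 members at an unadjusted p under 0.05. Over all genes tested, those omissions called 12, 19, 8 and 27 higher. They put 3173, 3402, 2932 and 3099 genes at an unadjusted p under 0.05 in either direction. WT liver 3 also had the highest summed level among WT livers of macrophage markers (354 against 218 and 212 CPM) and of proliferation markers (32.7 against 19.8 and 24.0 CPM), and their part in the member values was not tested.

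**Figure D3:**
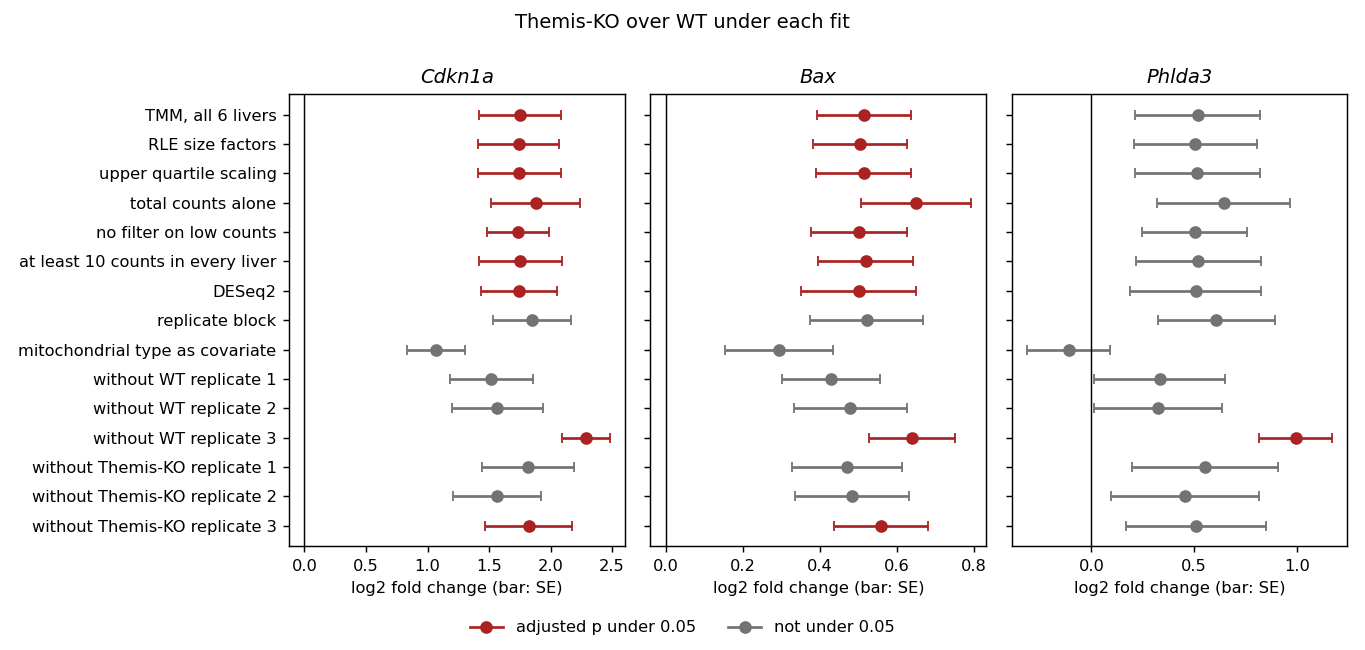
Log2 fold change, Themis-KO over WT, with its SE (bars) for Cdkn1a, Bax and Phlda3 in each fit (rows). Red marks an adjusted p under 0.05. Cdkn1a stays positive in every row, from 1.07 to 2.29, while Phlda3 runs from -0.11 with the mitochondrial type as a covariate to 0.995 without WT liver 3.

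Beyond the members, a list of 33 other p53 targets was examined, all of which were tested. Of these, 3 were higher in the KO livers (9.09%, beside 4.97% of all genes tested) and 30 were not called. None was lower by edgeR (2 at an unadjusted p under 0.05, and 1, *Ninj1*, by DESeq2), and 10 were higher at an unadjusted p under 0.05. In either direction 12 of the 33 had such a p, beside 4449 of all 14496 genes tested. DESeq2 called 7 of the 33 higher, where it called 1207 of 15056 genes higher and 1072 lower. Estimates were positive for 23 genes and negative for 10, with a median log2 fold change of 0.23. Every KO liver lay above every WT liver in 8 of the 33 (24.2%, beside 17.7% of all genes tested) and below in 3 (beside 16.9%). Decamers lay in 9 of 33 windows (27.3%) of the 25 genes that had a window, and no window held a pair. None of the 33 was called higher without WT liver 1, WT liver 2, KO liver 1 or KO liver 2 (6 to 8 at an unadjusted p under 0.05), while 7 were without WT liver 3 and 8 without KO liver 3. Over all genes tested, the first omissions called 12, 19, 8 and 27 higher. Without WT liver 3, 481 of 14830 genes were higher, and without KO liver 3, 2228 of 14806 were.

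The 3 targets that rose encode 2 receptors of the TNF receptor superfamily and a cofactor of p53. *Tnfrsf10b*, a death receptor for TRAIL, measured 1.15, 1.82 and 2.49 CPM in the WT livers and 4.80, 5.59 and 3.78 CPM in the KO livers (log2 fold change 1.37, SE 0.29, adjusted p = 0.0356). *Eda2r*, the receptor of ectodysplasin A2, measured 1.61, 1.92 and 2.96 CPM against 4.46, 5.46 and 4.25 CPM (1.12, SE 0.25, adjusted p = 0.0397). *Trp53inp1*, a stress protein that promotes p53 activity, measured 47.3, 55.4 and 62.5 CPM against 70.0, 88.4 and 92.7 CPM (0.60, SE 0.14, adjusted p = 0.0415). In all 3 the groups did not overlap, and WT liver 3 was the highest WT liver. With the mitochondrial type as a covariate the log2 fold changes were 0.93 for *Tnfrsf10b*, 0.67 for *Eda2r* and 0.42 for *Trp53inp1*. *Gdf15*, a stress cytokine with several inducers besides p53, measured 8.90, 12.9 and 27.3 CPM against 44.3, 33.7 and 23.0 CPM, with KO liver 3 below WT liver 3 (1.04, SE 0.40, adjusted p = 0.13).

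**Figure D4:**
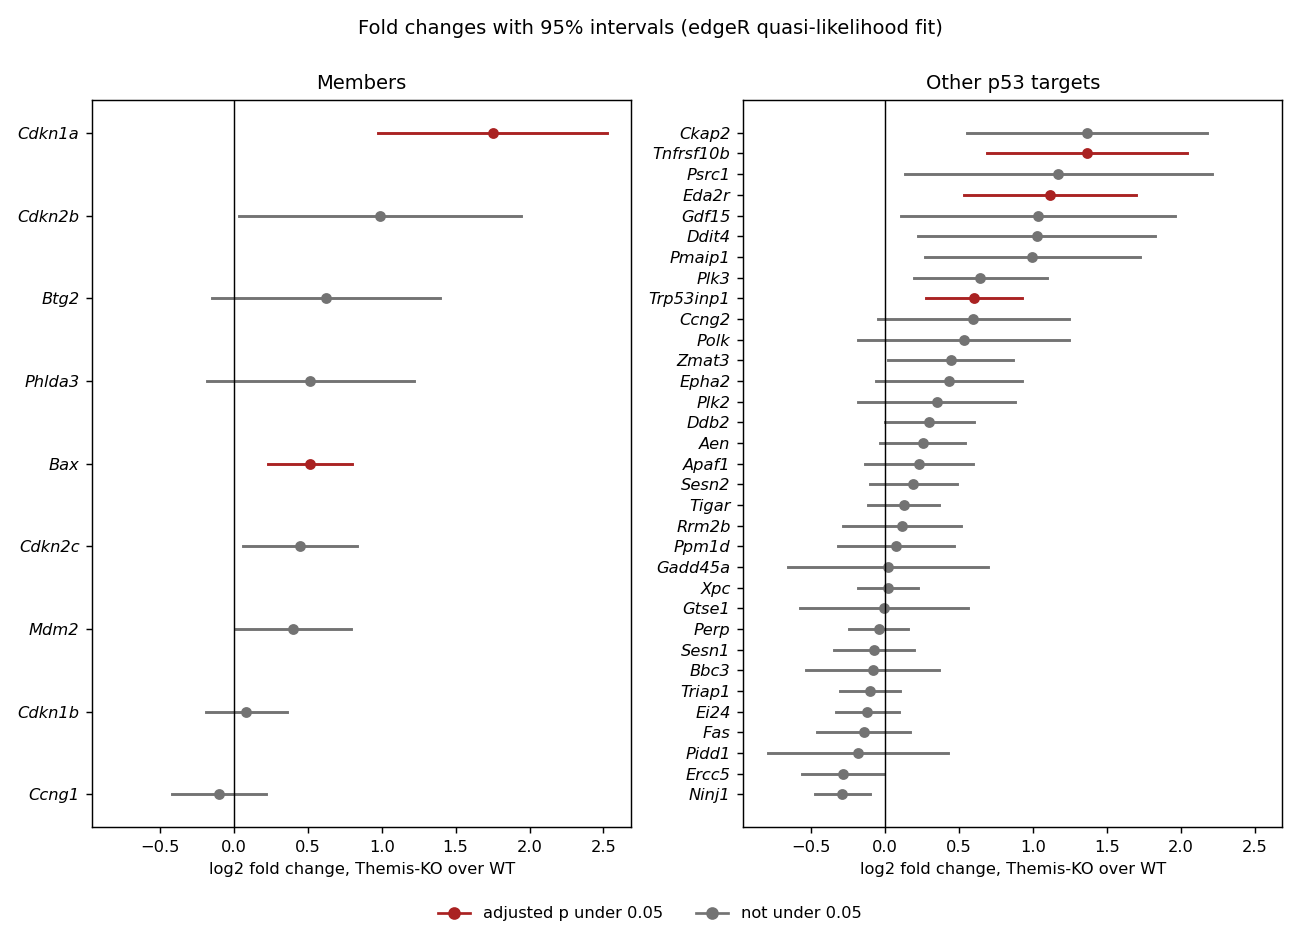
Log2 fold change, Themis-KO over WT (horizontal axis), with 95% intervals from edgeR for the 9 members tested (left) and 33 other p53 targets (right), sorted by size. Red marks an adjusted p under 0.05, which 2 members and 3 other targets reached. Ccng1 is the one member left of 0.

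None of the 16 tested genes of the list of p53 and its regulators was called by edgeR in either direction, while 4 had an unadjusted p under 0.05 on the higher side and 1 on the lower, and DESeq2 called 1 higher (*Ppp1r13l*). Without KO liver 3, edgeR called 4 higher (*Trp53*, *Crebbp*, *Rchy1* and *Ppp1r13l*) and 2 lower (*Mdm4* and *Atm*). That fit called 2228 of all 14806 genes tested higher and 2039 lower. Without each of the other 5 livers edgeR called 0 of the list, with 1 or 2 genes in all at an unadjusted p under 0.05. Those 5 fits called between 8 and 481 genes higher over all genes tested. *Trp53* itself, the gene for p53, measured 18.9, 18.6 and 18.9 CPM in the WT livers and 25.1, 25.9 and 19.9 CPM in the KO livers. The KO values lay above the closely grouped WT values, a difference of 0.33 on the log2 scale (SE 0.12, adjusted p = 0.103), and 0.42 (adjusted p = 0.0101) without KO liver 3, the lowest KO liver. Here WT liver 3 did not stand out. *Mdm4*, the partner of *Mdm2* in holding p53 down, was at -0.15 on the log2 scale (SE 0.10, adjusted p = 0.363). p53 protein, which is regulated mainly after translation, was not measured by these data.

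Of 8 tested CDK inhibitors and relatives of the members, 1 was higher and 0 were lower by edgeR. The share higher was 12.5%, beside 4.97% of all genes tested, of which 4.14% were lower. At an unadjusted p under 0.05, 4 were higher and 0 lower, DESeq2 called 2 higher (*Btg3* and *Phlda2*) and 0 lower, and edgeR called 3 higher without KO liver 3. Over all genes, DESeq2 called 1207 of 15056 higher, and edgeR without KO liver 3 called 2228 of 14806 higher. The gene called by edgeR with all livers was *Phlda2*, a relative of *Phlda3* that is imprinted and best known in placenta, at 4, 1 and 7 counts in the WT livers and 18, 21 and 14 counts in the KO livers (2.12 on the log2 scale, SE 0.48, adjusted p = 0.0398), and it passed without WT liver 3 or KO liver 3 but not without any of the other 4 livers (1.72 to 2.15). With the mitochondrial type as a covariate the log2 fold change of *Phlda2* was 1.48. *Btg3*, a relative of *Btg2*, measured 4.04, 3.74 and 6.79 CPM in the WT livers and 16.1, 18.1 and 6.52 CPM in the KO livers, with KO liver 3 inside the WT range (1.47, SE 0.39, adjusted p = 0.0558). *Cdkn1c*, which encodes the remaining CIP/KIP inhibitor p57, had an estimate of 0.24 (log2, SE 0.27, adjusted p = 0.576), and *Cdkn2d*, the remaining INK4 gene (p19), had -0.22 (SE 0.21, adjusted p = 0.489). *Cdkn1a* was thus the one gene that passed among the CIP/KIP and INK4 inhibitors, of which all but *Cdkn2a* were tested.

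The kinases that the INK4 proteins act on did not pass the test. *Cdk4* had a log2 fold change of 0.12 (SE 0.08, 95% interval -0.07 to 0.32, adjusted p = 0.341) and *Cdk6* had 0.14 (SE 0.10, 95% interval -0.10 to 0.38, adjusted p = 0.391). *Ccnd1*, their cyclin D partner, measured 53.4, 56.8 and 81.1 CPM in the WT livers and 89.5, 124 and 92.5 CPM in the KO livers, without overlap (0.67, SE 0.19, adjusted p = 0.0614). In the list of 25 cyclins, CDKs, RB and E2F genes, 2 were higher and 1 was lower in the KO livers by edgeR (6 and 1 at an unadjusted p under 0.05). The share higher was 8%, beside 4.97% of all genes tested, of which 4.14% were lower. An unadjusted p under 0.05 in either direction was found for 7 of the 25 and for 4449 of all 14496 genes tested. DESeq2 called 4 higher (*Ccnd1*, *Ccna2*, *Ccnb2* and *Cdk1*) and 1 lower, and edgeR called 6 higher with library totals as the only scaling and 6 higher without KO liver 3, *Ccnd1* among them each time. Over all genes, those fits called 1207 of 15056, 1449 of 14496 and 2228 of 14806 higher. *Ccna2* and *Ccnb2*, cyclins of S phase and mitosis, rose by log2 fold changes of 1.02 (SE 0.23, adjusted p = 0.0386) and 1.18 (SE 0.28, adjusted p = 0.0417). *Rbl2*, which encodes the RB relative p130 that represses cell cycle genes in resting cells, fell from 59.9, 51.4 and 50.7 CPM to 32.2, 30.1 and 38.6 CPM (-0.68, SE 0.12, adjusted p = 0.0241). Without WT liver 1 or 2 or KO liver 1 or 2 neither *Ccna2*, *Ccnb2* nor *Rbl2* passed, with log2 fold changes from 0.84 to 1.09 and 0.97 to 1.23 for the cyclins and from -0.60 to -0.72 for *Rbl2*, and without WT liver 3 the cyclins did not pass (adjusted p = 0.0553 and 0.0565). With the mitochondrial type as a covariate the log2 fold changes were 0.81 for *Ccna2*, 0.89 for *Ccnb2* and -0.59 for *Rbl2*. The cell cycle inhibitor *Cdkn1a* and mitotic cyclins were thus higher in the same livers, and bulk RNA does not tell whether they were so in the same cells.

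In the BCL2 family, to which *Bax* belongs, 0 of 11 tested relatives were called in either direction by edgeR, against 3 higher and 0 lower by the unadjusted p, and DESeq2 called 2 higher (*Bcl2l1* and *Bcl2l11*). With all livers, edgeR called 4.97% of all genes tested higher and 4.14% lower. Without KO liver 3, edgeR called 3 of the relatives higher, where it called 2228 of all 14806 genes tested higher. *Bcl2l1*, which encodes the antiapoptotic BCL-XL, measured 36.8, 34.5 and 39.2 CPM in the WT livers and 91.5, 89.5 and 41.6 CPM in the KO livers (1.01, SE 0.27, adjusted p = 0.0562). KO liver 3 was the lowest KO liver and close to the WT livers, and it was also the lowest KO liver in *Bax*.

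Summed markers of cholangiocytes, stellate cells, macrophages, proliferating cells and endothelial cells were higher in every KO liver than in any WT liver. A sum of few genes can turn on 1 of them. Among tested single genes, every KO liver lay above every WT liver in 4 of 7 cholangiocyte, 6 of 8 stellate cell and 4 of 8 macrophage markers. This held for 4 of 8 proliferation and 2 of 6 endothelial markers, beside 17.7% of all genes tested. Endothelial estimates were positive for 4 genes and negative for 2. Over all genes tested, edgeR called 4.97% higher and 4.14% lower, and 4449 of 14496 had an unadjusted p under 0.05. The summed level of 8 cholangiocyte markers was 154 to 193 CPM in the WT livers and 388 to 617 CPM in the KO livers, with 2 of 7 tested genes higher. *Spp1*, which macrophages can also express, made up most of that sum, and the other 7 markers summed to 12.9 to 16.8 and 20.6 to 45.9 CPM. For 8 hepatic stellate cell markers it was 388 to 453 and 609 to 664 CPM (5 of 8 higher), for 8 macrophage markers 212 to 354 and 357 to 502 CPM (3 of 8 higher), and for 8 proliferation markers 19.8 to 32.7 and 35.1 to 45.8 CPM (1 of 8 higher). Endothelial markers (6 genes) summed to 184 to 202 and 206 to 227 CPM (1 of 6 higher), and hepatocyte markers to 54630 to 58260 and 45990 to 50490 CPM (0 of 8 called by edgeR, 3 at an unadjusted p under 0.05). T cell markers (6 genes, 3.41 to 4.74 and 2.67 to 5.48 CPM) and B cell markers (4 genes, 2.34 to 5.57 and 1.59 to 4.91 CPM) overlapped between the groups. Of the 4 tested T cell markers, *Cd4*, the coreceptor of helper T cells, was lower, at 2.02, 1.06 and 1.82 CPM in the WT livers and 0.595, 0.516 and 0.661 CPM in the KO livers (-1.46, SE 0.32, adjusted p = 0.0386). The other 3 were not called and did not share its direction as a set. On the log2 scale *Cd8a* was at 1.38 (SE 0.61), *Cd2* at 0.13 (SE 0.39) and *Cd3e* at -0.09 (SE 0.34). No marker of these lists was at 0 in all livers. The part of these cell types in the levels of *Cdkn1a*, *Bax* or any other member was not tested.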

How the data were processed

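The authors isolated poly(A) RNA from frozen liver, sequenced it as paired-end reads and, per the labels, used cutadapt 2.3, STAR 2.7.8a and RSEM 1.3.3 on GRCm38. They deposited estimated counts (RSEM expected counts) per gene, which are whole numbers in the table and not normalized. RSEM divides reads that fit several genes. No column of another sample was present (0).

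In R 4.3.3 with edgeR 4.0.16 (limma 3.58.1), filterByExpr kept 14496 of 25403 genes, libraries were scaled by TMM, and glmQLFit and glmQLFTest compared the groups with no covariate over the 6 livers, with Benjamini-Hochberg adjustment of p over all genes tested. SE came from the fold change and its F statistic. Scripts were tested on simulated data. RPKM used union exon lengths of GENCODE vM21. The members and lists were chosen with earlier results of these data known. Named were all members, *Themis*, 8 fixed genes (*Trp53*, *Mdm4*, *Cdkn1c*, *Cdkn2d*, *Gdf15*, *Cdk4*, *Cdk6*, *Ccnd1*) and up to 5 called genes per list and direction. *Ninj1*, *Ppp1r13l*, *Crebbp*, *Rchy1*, *Atm*, *Btg3*, *Cdk1*, *Spp1*, *Cd4*, *Cd8a*, *Cd2*, *Cd3e*, *Bcl2l1* and *Bcl2l11* were named after their values were seen. Alternatives were RLE, upper quartile and total count scaling, other filters, DESeq2 1.42.0, the replicate block, the mitochondrial type as a covariate and leaving out each liver. Nothing says that the livers of a group came from separate litters or cages, and p-values measure the spread between these livers.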

Additional observations from a re-analysis of the deposited data

How the results depend on the processing

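With 3 livers a group and a biological coefficient of variation of 0.157, calls close to the threshold moved. Scaling by RLE or upper quartile, a minimum of 10 counts in every liver, no filter and DESeq2 kept *Cdkn1a* and *Bax* as the called members. The number of members higher was 0 with the replicate block, 0 with the mitochondrial type as a covariate and 0 to 3 when each liver was left out (0 without WT liver 1 or 2 or KO liver 1 or 2, 3 without WT liver 3 and 2 without KO liver 3). Over all genes tested, the covariate fit called 0 higher and 3 lower. Leaving out WT liver 1 or 2 or KO liver 1 or 2 called 12, 19, 8 and 27 genes higher. Leaving out WT liver 3 called 481 genes higher, and leaving out KO liver 3 called 2228. The log2 fold change of *Cdkn1a* was 1.85 with the replicate block (adjusted p = 0.0681), 1.07 with the mitochondrial type as a covariate and 1.52 to 2.29 when each liver was left out, past the threshold only without WT liver 3 or KO liver 3. *Bax* had adjusted p-values of 0.118 with the block and 0.134 to 0.153 in the same 4 omissions. The study describes 3 pairs of livers without saying which livers form a pair, and the replicate numbers did not pair them in the data: same-numbered livers had correlations of 0.00028, -0.24 and -0.16 between their deviations from the group means, and the block took the calls over all genes to 17 higher and 45 lower.

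The number of other p53 targets higher was 5 with total counts alone, 8 without a filter, 7 with DESeq2, 0 with the block, 0 with the mitochondrial type and 0 to 8 when each liver was left out (0 without WT liver 1 or 2 or KO liver 1 or 2, 7 without WT liver 3 and 8 without KO liver 3). The number lower was 1 with DESeq2 and 0 to 1 when each liver was left out. Signs reversed for *Cdkn1b* (-0.025 to 0.13 over the omissions, negative without KO liver 2), for *Ccng1* (0.030 with total counts alone, -0.22 to 0.022 over the omissions, positive without WT liver 3) and for *Phlda3* (-0.11 with the mitochondrial type), none of which had passed the test. Over all genes tested, total counts alone called 1449 higher and 387 lower. No filter called 1212 of 25403 genes higher, and DESeq2 called 1207 of 15056 higher. The log2 differences of the 5 *Cdkn1a* ratios stayed positive in every omission, from 0.87 (*Btg2*) to 2.26 (*Ccng1*). The cause of these changes was not tested.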
